A study of Drosophila melanogaster with 10 samples.

Results

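The chemosensory and pickpocket receptor genes of Drosophila melanogaster were examined in sorted Kenyon cells (KCs), the intrinsic neurons of the mushroom body. Members were the rows of the deposited gene table whose symbol begins with Or, Gr or Ir followed by a number and a letter, or with ppk, and they were joined by FlyBase identifier to the read counts of every sample. This gave 73 of the 9655 genes of that table: 15 odorant receptors (Or), 19 gustatory receptors (Gr), 25 ionotropic receptors (Ir) and 14 pickpocket channels (ppk). The full count tables hold 23882 features and 214 receptor symbols of these 4 families, so 141 receptor genes were no members. The questions are which sensory receptors have reads in KCs, and whether Ir76a and ppk29 are the only members that differ between genotypes. The study lists both among the genes that differed in its bulk comparison, so they were chosen from results of these same samples.

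The mutants were homozygous for dSERT16, an allele of the serotonin transporter gene SerT left by an imprecise P-element excision that removed DNA at its 5′ end. The controls were homozygous for dSERT4, which is matched in genetic background and has a smaller deletion of its own. All flies were females at day 0, the day of eclosion, and carried Mef2(P247)-gal4 with a nuclear GFP, a driver under which fewer of the α′/β′ KCs are marked than of the α/β and γ KCs. Brains were pooled, so 1 sample holds the KCs of several flies, and 5 samples of each genotype came from 5 collection dates with 1 of each per date. The comparisons use replicates 2 to 5, since the study left out replicate 1, the pair of the first date, for technical variability.

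Insects sense chemicals with several receptor families. Odorant and gustatory receptors belong to the same superfamily, while the ionotropic receptors and the pickpocket channels are unrelated to them. Odorant receptors form ion channels together with the shared subunit Orco and are known from olfactory neurons of the antenna and maxillary palp. Gustatory receptors detect sugars, bitter compounds and carbon dioxide, mostly in taste neurons. Ionotropic receptors derive from glutamate receptors and pair a tuning subunit with a co-receptor, chiefly Ir8a, Ir25a, Ir76b or Ir93a, in smell, taste, humidity and temperature sensing. The pickpocket genes encode sodium channels of the DEG/ENaC family that act in touch, nociception, water taste and pheromone sensing. KCs receive olfactory information from projection neurons and are not themselves sensory neurons.

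KC marker genes had many reads, with markers of other cell types beside them. No sample of unsorted cells was there for comparison, so enrichment for KCs was not measured. The 15 KC marker genes all had reads, at 479.7 to 5310 CPM (counts scaled to library size by TMM) each, and together they made up 20360 to 21108 CPM in dSERT16 and 19240 to 22100 CPM in dSERT4. Glial markers were present too: 8 of 10 had reads, and their sum ran from 1107 to 1701 CPM in dSERT16 and from 987.4 to 1683 CPM in dSERT4. Markers of olfactory sensory neurons and antennal support cells summed to 4.58 to 34.1 CPM in dSERT16 and 5.54 to 19.4 CPM in dSERT4, with Obp99a and Est-6 at the head. Reads were found for 12 of the 14 that could be looked up, and Orco had 242 reads in the 8 samples together. A glial or olfactory marker at 0 reads need not be silent, since genes lying inside another gene could not be counted. Whether these markers do so was not checked. Markers of other transmitter neurons summed to 63.3 to 154.8 CPM in dSERT16 and 71.5 to 131.3 CPM in dSERT4, with DAT at the head. Photoreceptor and eye markers summed to 137.3 to 197.3 CPM in dSERT16 and 122.9 to 183.1 CPM in dSERT4, mostly norpA. Fat body and blood markers summed to 18.9 to 44.3 CPM in dSERT16 and 33.5 to 57.6 CPM in dSERT4. The reads on genes per sample ranged from 18446396 to 69997102, and all 8 samples of the 4 pairs together held 238090721. SerT, the mutated gene, was at 0.481 ± 0.247 CPM in dSERT16 and 1.88 ± 1.15 CPM in dSERT4 (SD, n = 4 each). The log2 fold change was -1.92 and the adjusted p 0.519 (edgeR). The genotypes did not overlap, as in 207 (2.38%) of all 8690 features tested, counting those lower in dSERT16. SerT had 16, 40, 6 and 5 reads in dSERT16 replicates 2 to 5, against 51, 64, 69 and 19 in dSERT4. Only with the dSERT4 samples did it pass the low-count filter, so its lack of overlap is no support for a difference.

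How the reads were counted decided which receptors could be seen at all. The values behave as if a gene was counted over its whole span from first to last base, introns included, and a read on bases of more than 1 gene was given to none. Of protein-coding genes lying inside an intron of another gene, 1263 of 1263 had 0 reads in all 10 samples, as had 685 of 685 that lie inside another gene and touch its exons, against 253 of 11967 genes (2.11%) that lie inside no other gene. The deposited TPM values (scaled by length and library size) fit the same rule. They matched unstranded reads divided by gene span within 0.02 log2 units in 99.9% of the values of 9622 genes, but reads divided by exon length in only 2.96%.

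Of the 141 receptor genes that were no members, 40 lie wholly within other genes, and all 40 had 0 reads without regard to strand. Their values say nothing about expression. Another 98 had 1 to 125 reads over the 8 samples, with a median of 24, and the remaining 3 (Gr64d, Ir94d and Or88a) had none, although part of each gene could be counted, which allows up to 0.0126 CPM over the 8 samples together. Counting by strand gave reads to 26 of the 40 nested genes. Or45a was given 7946 reads in the 8 samples when the 2 strand-specific columns were summed, Ir56a 5261, Gr77a 3112 and Ir85a 2732. Each lies within other genes: Or45a overlaps CG13739 and CG13954, Ir56a the serotonin receptor gene 5-HT1A, Gr77a CG13252, and Ir85a Pif1A and Pif1B. The libraries do not keep strand (48.3% to 49.9% of reads fell on the first strand), so these reads cannot be told apart from those of the genes around them.

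The rule itself favours genes with reads, since every member had reads in at least 5 of the 8 samples. The best-covered receptors just outside the table were Gr23a with 125 reads, Or67d with 122 and Ir7a with 111, each with 10 or more reads in at most 3 samples, and the members with the fewest were Ir94h with 42 and Ir94c with 54. By a count of at least 10 reads in at least 4 of the 8 samples, 52 of the 73 members were detected: 12 Or, 14 Gr, 16 Ir and 10 ppk genes. None of the 141 other receptor symbols passed that count. Only 9 members had 10 or more reads in all 8 samples: Ir68a, Or43b, Or85f, Ir76a, Ir51a, Gr8a, Gr66a, Ir93a and Ir41a. No ppk gene was among them.

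Detection varied between samples of 1 genotype. The number of members with 10 or more reads was 48, 64, 27 and 32 in dSERT16 replicates 2 to 5 and 57, 49, 43 and 25 in dSERT4 replicates 2 to 5. After every sample was thinned to 18446396 reads, these numbers were 38, 40, 27 and 29 in dSERT16 and 42, 36, 42 and 23 in dSERT4. The genotypes overlapped before and after thinning, and replicates 4 and 5 of dSERT16 and replicate 5 of dSERT4 remained the samples with the fewest. On the thinned counts 35 members were detected in place of 52.

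A single gene held most of the receptor reads. Ir68a, known as a subunit of the moist-air receptor of the antenna, lies on the reverse strand of 3L from 11232972 to 11236218 in BDGP6 (dm6) and shares no base with another gene. It took 33697 of the 51319 member reads in the 8 samples (65.7%), and between 60.1% and 76.1% in each sample. Its TPM was 168 ± 22.7 in dSERT16 and 207 ± 28.1 in dSERT4 (SD, n = 4 each), which put its mean above 88.2% of the genes of the deposited table. That rank is by TPM per gene span, which places genes with long introns lower. Only 804 of the 3247 bases of Ir68a are intron. The next member, Or43b, was 6.77 times lower in mean TPM. Since TPM divides by the whole span, it understates genes that share part of theirs: 1025 of the 1770 bases of Or43b could be counted, and per countable base the ratio was 3.92. All members together received 0.0216% of the reads on genes.

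The other subunits known from humidity sensing did not share that level. Ir93a, a co-receptor needed for both moist and dry air sensing, had 1.21 ± 0.299 TPM in dSERT16 and 1.50 ± 0.637 TPM in dSERT4. It shares 58.0% of its span with other annotated features, and nearly all of those bases belong to transposable elements. Ir25a, the most broadly used co-receptor, had 16, 18, 22 and 3 reads in dSERT16 replicates 2 to 5, against 7, 5, 3 and 0 reads in dSERT4. Ir40a, the dry-air subunit, had 263 reads in the 8 samples, spread over a span of 24851 bases. Ir8a and Ir76b, co-receptors that were no members, had 50 and 17 reads in the 8 samples. Orco, at 0.801 ± 0.771 CPM in dSERT16 and 0.782 ± 0.632 CPM in dSERT4, was low too.

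**Figure D1:**
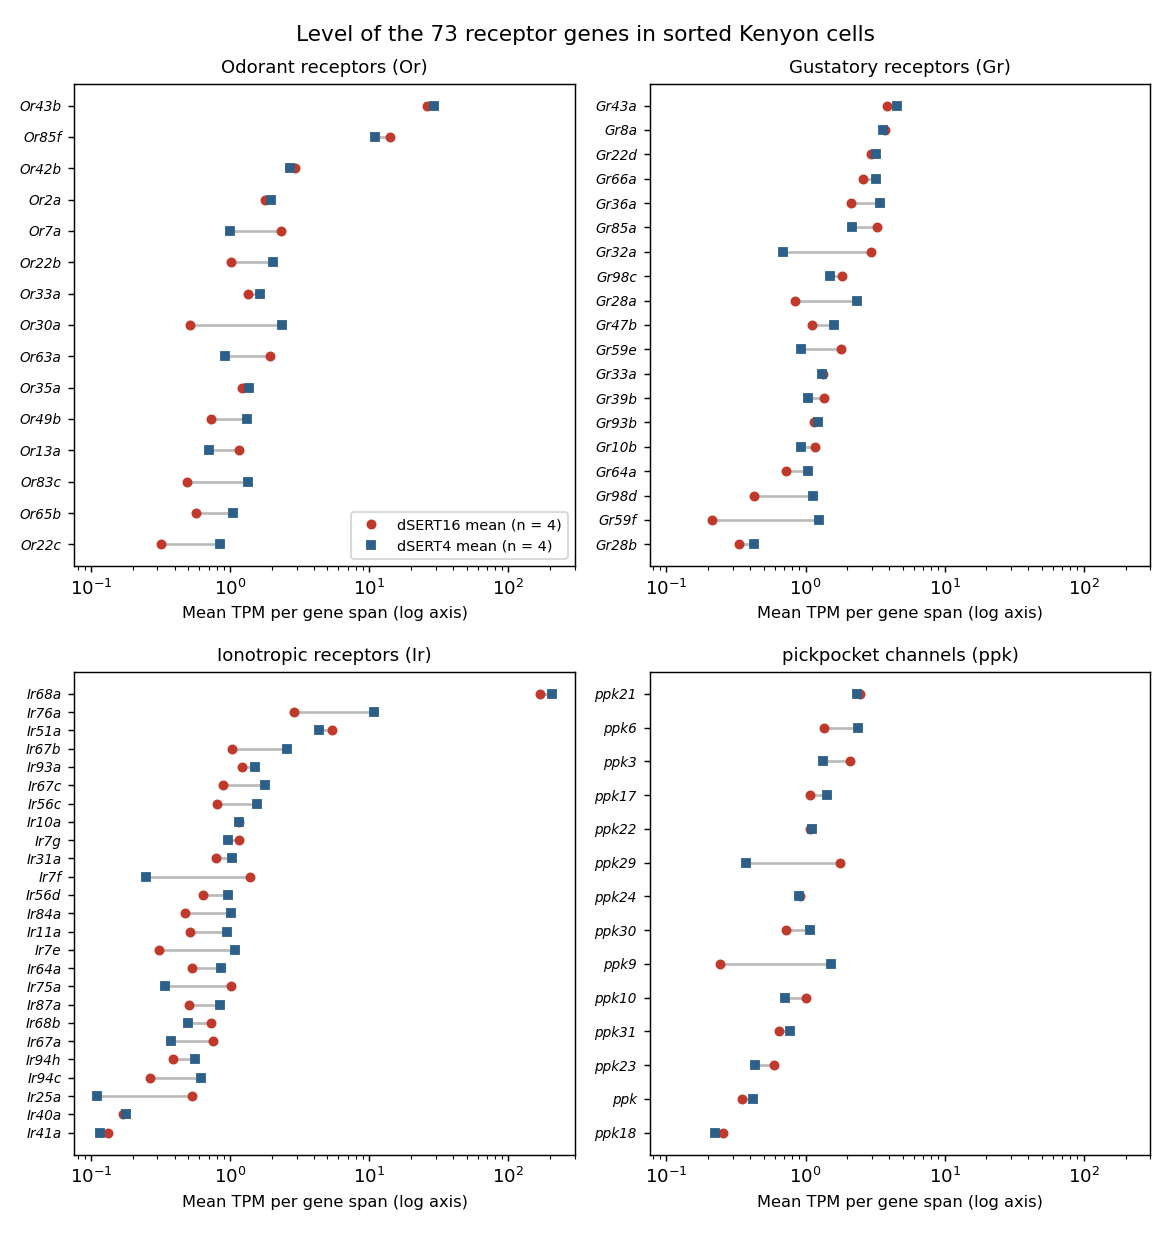
Mean TPM per gene span of the 73 members on a log axis, by family, for 4 dSERT16 samples (circles) and 4 dSERT4 samples (squares) each, with a grey line joining the means of 1 gene. Ir68a stands at 168 and 207 TPM, Or43b and Or85f above 10 TPM in both genotypes, and 69 of the 73 members have a mean over all 8 samples between 0.125 and 4.87 TPM.

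Among odorant receptors, Or43b and Or85f stood apart. Or43b had 26.0 ± 8.51 TPM in dSERT16 and 29.3 ± 9.54 TPM in dSERT4, and Or85f had 14.2 ± 2.98 TPM in dSERT16 and 11.0 ± 4.85 TPM in dSERT4. Part of Or43b (42.1% of its span) is shared with Cul1, a cullin gene on the opposite strand at 282 CPM in dSERT16 and 279.5 CPM in dSERT4, so Or43b was counted on the rest alone. Or85f shares no base with another gene. It ends 18 bases from CG34117, a gene on the opposite strand at 19.9 CPM in dSERT16 and 20.8 CPM in dSERT4. Or42b, a receptor for fruit esters, followed with 2.91 ± 1.84 TPM in dSERT16 and 2.70 ± 1.08 TPM in dSERT4. Or2a and Or7a had means over the 8 samples of 1.87 and 1.65 TPM, and their samples ranged from 0.242 to 1.33 CPM and from 0 to 1.43 CPM. The neighbours Or42b, Or2a and Or7a in this order did not differ by more than their SDs.

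The gustatory receptors formed a continuum with no leading gene. Gr43a, an internal fructose sensor known from a few neurons of the fly brain as well as from taste organs, was first with 3.84 ± 2.85 TPM in dSERT16 and 4.51 ± 3.03 TPM in dSERT4. In dSERT16 replicates 2 to 5 it had 2.48, 3.92, 1.73 and 0.276 CPM, against 1.08, 3.62, 0.983 and 4.06 CPM in dSERT4. The lowest and the highest of these values are dSERT16 replicate 5 and dSERT4 replicate 5, and the genotypes overlapped. Gr8a, Gr22d, Gr66a (a common bitter receptor subunit) and Gr36a followed with means over the 8 samples of 3.68, 3.10, 2.92 and 2.77 TPM and SDs of 3.40, 3.02, 1.49 and 3.31 TPM. No order among these 5 genes stands out from the spread. Gr64a, a sugar receptor, had 85 reads and the bitter co-receptor Gr33a 173 reads in the 8 samples.

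Among ionotropic receptors, Ir76a and Ir51a came after Ir68a. Ir76a, which with Ir25a and Ir76b detects amines in antennal neurons, had 2.90 ± 0.993 TPM in dSERT16 and 10.9 ± 4.35 TPM in dSERT4. Ir51a, which the annotation lists as a pseudogene, had 5.40 ± 3.81 TPM in dSERT16 and 4.33 ± 2.24 TPM in dSERT4. It lies 192 bases from row, on the opposite strand, with 206.5 CPM in dSERT16 and 211.8 CPM in dSERT4. The acid receptor Ir64a, the acetic acid receptor Ir75a and Ir84a, known for its part in male courtship, had means over the 8 samples of 0.697, 0.681 and 0.744 TPM. Per countable base Ir76a ranked 3 of the 73 members in place of 4, Ir93a 8 in place of 28 and ppk29 16 in place of 38. Ir41a was last of all 73 members by TPM, at 0.133 ± 0.0417 in dSERT16 and 0.117 ± 0.0308 in dSERT4. Its span of 104437 bases, by which the TPM is scaled, far exceeds its 2345 bases of exon. Per kilobase of exon it ranked 6 of 73, at 1.33 CPM per kb over the 8 samples, and Ir40a ranked 39 in place of 72. Whether reads on such a span came from exons or introns cannot be told apart in gene counts.

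The ppk genes were low throughout. Their highest members, ppk21, ppk6, ppk3, ppk17 and ppk22, had means over the 8 samples of 2.41, 1.86, 1.72, 1.25 and 1.09 TPM with SDs of 1.89, 1.32, 1.38, 0.954 and 0.364 TPM, so they did not separate beyond their spread. The founding member ppk, required in nociceptive neurons of the larval body wall, had 82 reads in the 8 samples, and ppk26, its partner there, had 20. ppk23, which acts with ppk25 and ppk29 in pheromone-sensing neurons of the leg, had 11, 5, 9 and 12 reads in dSERT16 replicates 2 to 5, against 15, 3, 9 and 5 reads in dSERT4. ppk25 had 0 reads, but it lies within CheB42c and mim and could not be counted.

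Reads on most members were uneven between samples. The sample with the most reads of a member held 34.3% of that member's reads at the median (19.6% to 65.2% over the 73 members), and 4 members had most of their reads in 1 sample. Without Ir68a, the members summed to 52.3 to 81.1 CPM in dSERT16 and 58.2 to 89.1 CPM in dSERT4. With Ir68a the sums were 172.5 to 213.7 CPM in dSERT16 and 223.3 to 243.8 CPM in dSERT4, which do not overlap in the 4 pairs. Of all 8690 single features tested, 423 (4.87%) did not overlap in either direction. The sum mostly follows Ir68a, which held 60.1% to 76.1% of the member reads in each sample and overlapped between genotypes by itself. It is therefore no sign of a shift across the receptors. Replicate 1 of dSERT16, at 241.9 CPM, lies within the dSERT4 range.

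The genotype comparison was run over all features with enough reads, with edgeR's quasi-likelihood test and Benjamini-Hochberg adjustment. Of 8690 features tested, 43 (0.495%) passed an adjusted p of 0.05, of which 23 were higher in dSERT16 and 20 lower. Of the 73 members 47 passed the filter on low counts, and 0 of these 47 were called. At an unadjusted p under 0.05 there were 6 members, beside 609 of all 8690 features (7.01%). Among these members, Ir7f and Gr32a passed the filter only through their dSERT16 samples, where they were higher. With DESeq2, which called 149 of 9719 features (1.53%), 1 member was called, Ir76a. The direction was higher in dSERT16 for 20 of the 47 members and lower for 27. The median log2 fold change (dSERT16 over dSERT4) was -0.09 for the members tested and 0.00 for all features tested, while the median size of the change regardless of sign was 0.37 for the members and 0.15 for all features. With the collection date as a block in the 4 pairs, 39 of 72 members were higher in dSERT16 and the median was 0.10. The low-count filter lets more genes through under that design (9865 features in place of 8690). The effect of the block and that of the added low-count members cannot be told apart here. With the samples of 1 date set side by side, 5 of the 47 members were higher in dSERT16 in all 4 pairs and 6 were lower in all 4, beside 781 (8.99%) and 759 (8.73%) of all 8690 features.

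**Figure D2:**
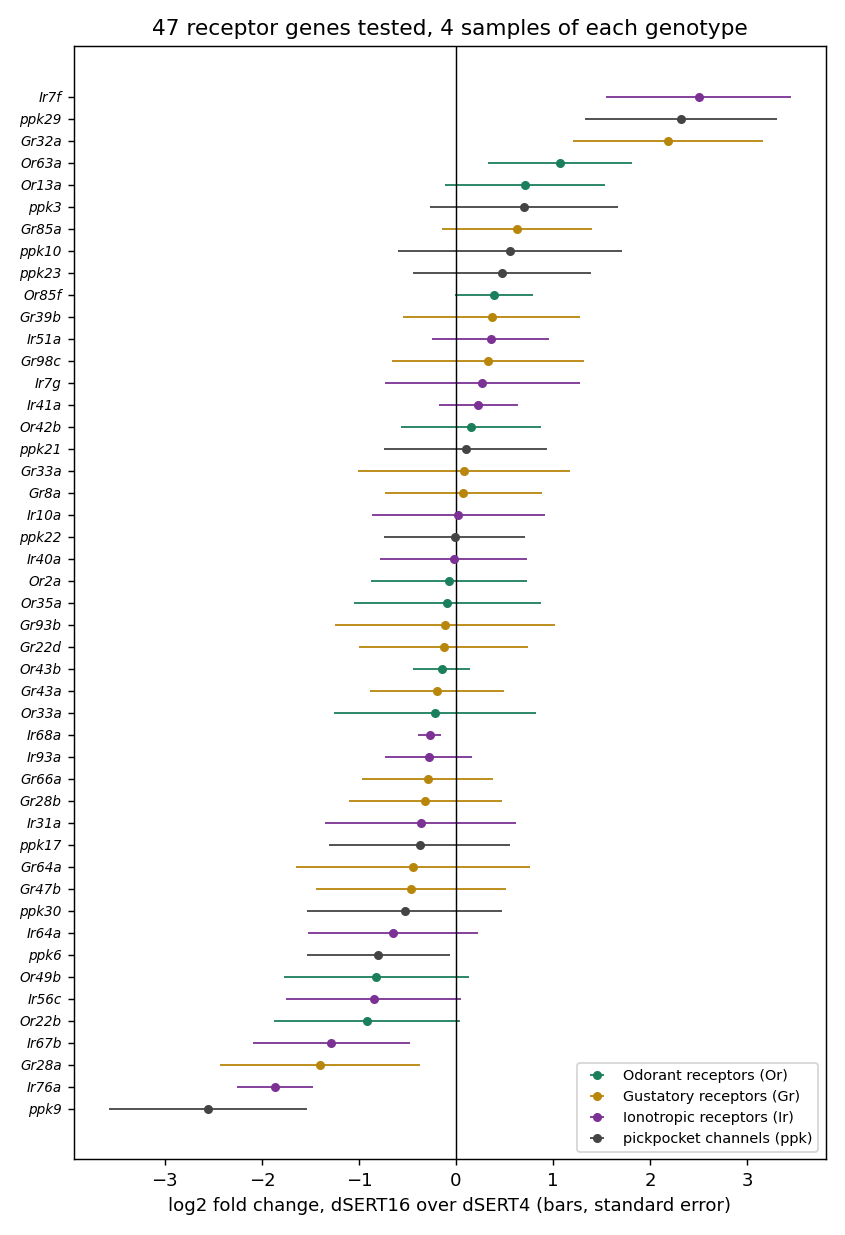
Log2 fold change (dSERT16 over dSERT4) with its standard error for the 47 members tested with edgeR, ordered by value and coloured by family. The values run from -2.56 for ppk9 to 2.50 for Ir7f, and Ir76a at -1.87 has a standard error of 0.39, against 0.96 for Ir7f and 1.02 for ppk9.

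Ir76a had the lowest adjusted p of the members. Its CPM was 4.12, 1.62, 2.76 and 3.17 in dSERT16 replicates 2 to 5, against 12.9, 12.5, 12.6 and 4.30 in dSERT4. All 4 dSERT16 samples lay below all 4 dSERT4 samples, though dSERT4 replicate 5 lay close to dSERT16 and far from the other 3 controls. Among all 8690 features tested, 207 (2.38%) were without overlap and lower in dSERT16, and 423 (4.87%) were without overlap in either direction. The log2 fold change was -1.87 with a standard error of 0.39, and the adjusted p was 0.0527 with edgeR, just short of a call. An exact permutation test of log2 CPM across all 8 samples gave p = 0.0286 (two-sided, n = 4 each), the smallest p that 4 samples against 4 allow. Without overlap this p could take no other value. Ir76a was also chosen because the study named it from these same samples, so this p is no independent support. Since the dates pair the samples, an exact permutation within the 4 pairs was run too: Ir76a was lower in dSERT16 in 4 of 4 pairs, and p was 0.125 (two-sided), the smallest that 4 pairs allow, so this test cannot pass 0.05. In the pair left out, replicate 1, dSERT16 had 4.05 CPM and dSERT4 13.4 CPM.

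The call for Ir76a changed with the processing while its direction did not. It was lower in dSERT16 in all 17 fits and called in 6 of them: with DESeq2 (adjusted p = 1.51e-04), without the filter on low counts (0.00271), with at least 10 counts required in every sample (0.0409), with all 5 pairs (0.0146), with all 5 pairs and the collection date as a block (0.0217) and without dSERT4 replicate 5 (0.0168). With the date as a block in the 4 pairs, edgeR gave an adjusted p of 0.0689. Over all features these fits called 1.53% (DESeq2), 0.498% (no filter), 0.638% (10 counts in every sample), 0.756% (all 5 pairs), 0.963% (all 5 pairs with the block), 0.588% (4 pairs with the block) and 0.457% (sum of strand-specific columns). Leaving out any of the other 7 samples gave adjusted p-values from 0.0709 to 0.182 and log2 fold changes from -2.08 to -1.66.

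**Figure D3:**
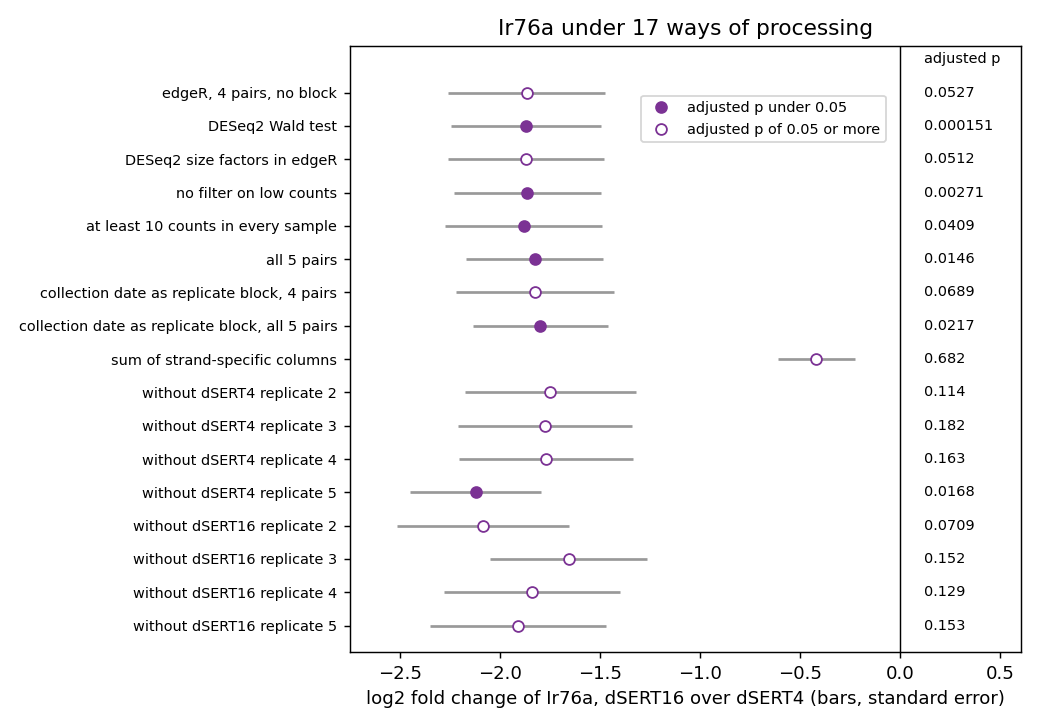
Log2 fold change of Ir76a (dSERT16 over dSERT4) with its standard error under 17 ways of processing, with the adjusted p at the right and filled points where it is under 0.05. All points lie below 0, and 16 of them lie between -2.12 and -1.66, while the sum of strand-specific columns gives -0.42.

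The counted part of Ir76a is about as long as its uncounted part. The gene lies on the forward strand of 3L from 19799278 to 19803427, with 2109 bases of exon, and 2014 bases at its 5′ side (48.5% of the span) also belong to CG14102, a gene on the opposite strand. Reads on these shared bases were counted for neither gene. Summing the strand-specific columns brings them back, for both genes at once. On that count Ir76a had 4891 reads in place of 1655, of which 66.2% came from shared bases, and its log2 fold change was -0.42 with a standard error of 0.19 and an adjusted p of 0.682 with edgeR. The shared bases alone held 14.6 ± 3.24 CPM without TMM scaling in dSERT16 and 12.9 ± 2.57 CPM without TMM scaling in dSERT4 (SD, n = 4 each). The values of Ir76a given above were thus measured on the 3′ part of the gene. On its shared 5′ part, where reads of Ir76a and CG14102 cannot be told apart, the genotypes overlapped. CG14102 runs from 19798975 to 19801291, so the 2014 shared bases are most of its span and few are its own. On its own bases CG14102 had 0.660 ± 0.212 CPM in dSERT16 and 0.401 ± 0.126 CPM in dSERT4. These values cover too short a stretch to be set against those of the shared bases. The genes on either side, SREBP 298 bases upstream on the same strand and TORIP 310 bases downstream on the other, had log2 fold changes of 0.10 and -0.14 with adjusted p-values of 0.913 and 0.927 (edgeR).

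ppk29 had a higher mean in dSERT16 but was not called in any of the 16 fits that tested it. It had 0.344, 3.16, 1.19 and 2.48 CPM in dSERT16 replicates 2 to 5, against 0, 0.402, 0.541 and 0.532 CPM in dSERT4. The genotypes overlapped, since dSERT16 replicate 2 lay below 3 of the 4 controls. These values rest on 9, 166, 22 and 54 reads in dSERT16 and on 0, 12, 11 and 11 reads in dSERT4, and dSERT16 replicate 3 alone held 58.2% of them. The log2 fold change was 2.32 with a standard error of 0.99, an unadjusted p of 0.0343 and an adjusted p of 0.637 with edgeR. The study, which used DESeq2, lists ppk29 among its differing genes, but the DESeq2 fit here gave an adjusted p of 0.268. The reason for that difference was not tested. An exact permutation test across all 8 samples gave p = 0.114 (two-sided, n = 4 each). Within dates, ppk29 was higher in dSERT16 in 4 of 4 pairs, with an exact permutation p of 0.125 (two-sided), again the smallest possible. Across the alternatives the adjusted p ran from 0.169, with all 5 pairs and the date as a block, to 0.929, and the log2 fold change from 0.68 to 3.25. Replicate 1 had 1.35 CPM in dSERT16 and 0.0143 CPM in dSERT4, in the same direction.

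ppk29 also shares bases. It lies on the reverse strand of 2R from 24052917 to 24057137, and 46.2% of its span is shared with CG13563 and with the potassium channel gene sei, both on the opposite strand. The bases ppk29 shares held 3.80 ± 1.31 CPM without TMM scaling in dSERT16 and 3.15 ± 0.758 CPM without TMM scaling in dSERT4, more than its own bases held in either genotype. sei, whose 3′ end overlaps that of ppk29, was at 138.6 ± 13.6 CPM in dSERT16 and 125.5 ± 11.0 CPM in dSERT4, with a log2 fold change of 0.14 and an adjusted p of 0.863 (edgeR). By the strand-specific sum ppk29 had a log2 fold change of 0.68 with a standard error of 0.36 and an adjusted p of 0.770 (edgeR).

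**Figure D4:**
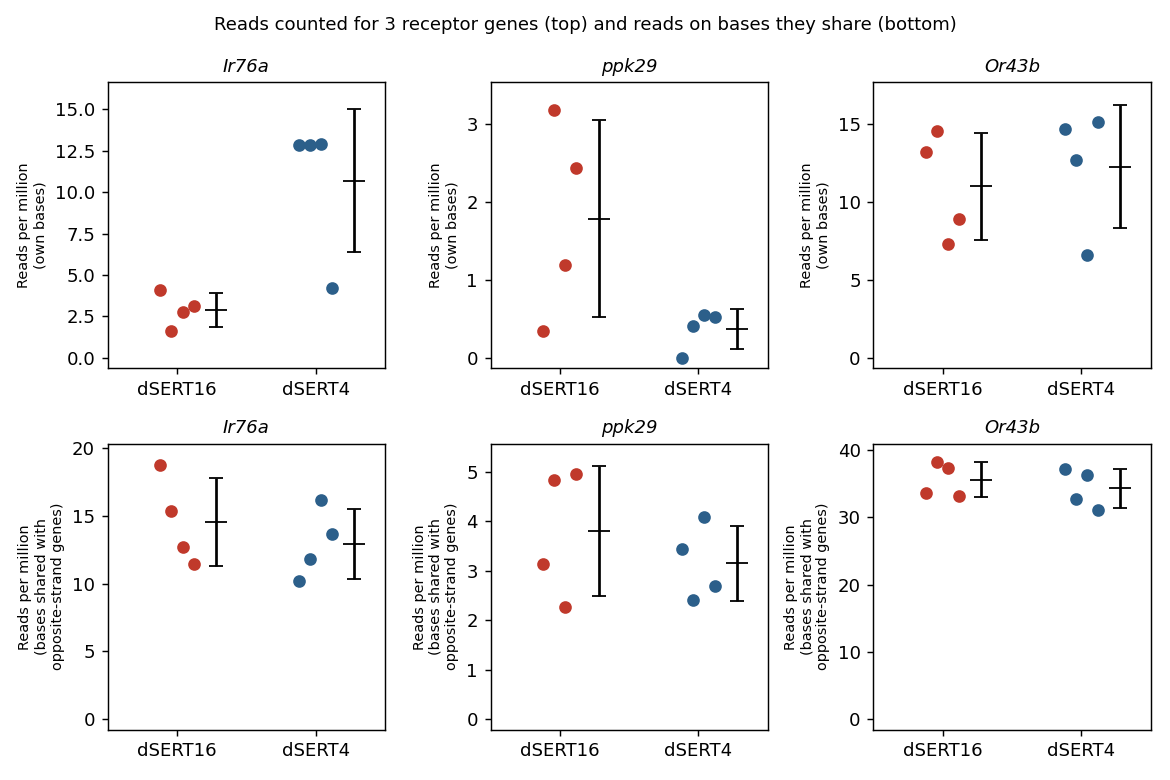
CPM without TMM scaling on the bases that Ir76a, ppk29 and Or43b do not share (top) and on the bases they share with genes on the opposite strand (bottom), for 4 dSERT16 samples (left in each panel) and 4 dSERT4 samples, with mean and SD. The genotypes separate for Ir76a on its own bases only, and the shared bases of Ir76a range from 11.4 to 18.7 in dSERT16 and from 10.2 to 16.2 in dSERT4.

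Other members had changes as large in fitted size but with wider errors. Ir7f, a member of a cluster of Ir7 genes on X, was the only other tested member without overlap between genotypes, with 0.534, 0.513, 0.758 and 1.01 CPM in dSERT16 replicates 2 to 5, against 0.0831, 0.201, 0.197 and 0 CPM in dSERT4. That is 14, 27, 14 and 22 reads in dSERT16 and 4, 6, 4 and 0 reads in dSERT4. Only the dSERT16 samples carried Ir7f past the low-count filter, so being tested already favoured a higher value there. Its lack of overlap is therefore no support for a difference. The log2 fold change was 2.50 with a standard error of 0.96 and an adjusted p of 0.561 with edgeR (0.160 with DESeq2), and replicate 1 had 0.279 CPM in dSERT16 and 0.100 CPM in dSERT4. In all 8690 features, 216 (2.49%) were without overlap and higher in dSERT16. The neighbours of Ir7f in the cluster, Ir7g and Ir7e, overlapped between genotypes.

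Of the 6 members with an unadjusted p under 0.05, the remaining 3 were ppk9, Gr32a and Ir68a (the first 2 are named for that p alone, after their values were seen). ppk9 had 0.496, 0.742, 0.271 and 0 CPM in dSERT16, against 2.10, 5.29, 1.77 and 0.0967 CPM in dSERT4, with a log2 fold change of -2.56, a standard error of 1.02 and an adjusted p of 0.599 (edgeR). In replicate 1 its order was the opposite, with 1.50 CPM in dSERT16 and 0.401 CPM in dSERT4. Gr32a, a bitter and pheromone receptor subunit, had 0.687, 0.456, 1.79 and 2.25 CPM in dSERT16, against 0.0623, 0.168, 0.885 and 0.0483 CPM in dSERT4, with a log2 fold change of 2.18, a standard error of 0.98 and an adjusted p of 0.671 (edgeR). Both genes overlapped between genotypes. Gr32a had 18, 24, 33 and 49 reads in dSERT16 replicates 2 to 5, against 3, 5, 18 and 1 in dSERT4. As with Ir7f, the dSERT16 samples carried it past the low-count filter, so being tested already favoured a higher value there. Its p is therefore no support for a difference.

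Ir68a, the member with the most reads, had a small fitted difference. It had 121, 126, 120 and 159 CPM in dSERT16 replicates 2 to 5, against 134, 163, 152 and 185 CPM in dSERT4, and the genotypes overlapped, although dSERT16 was lower in 4 of 4 date pairs. Its log2 fold change was -0.27 with a standard error of 0.12 and an adjusted p of 0.658 (edgeR), and replicate 1 had 172 CPM in both genotypes.

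**Figure D5:**
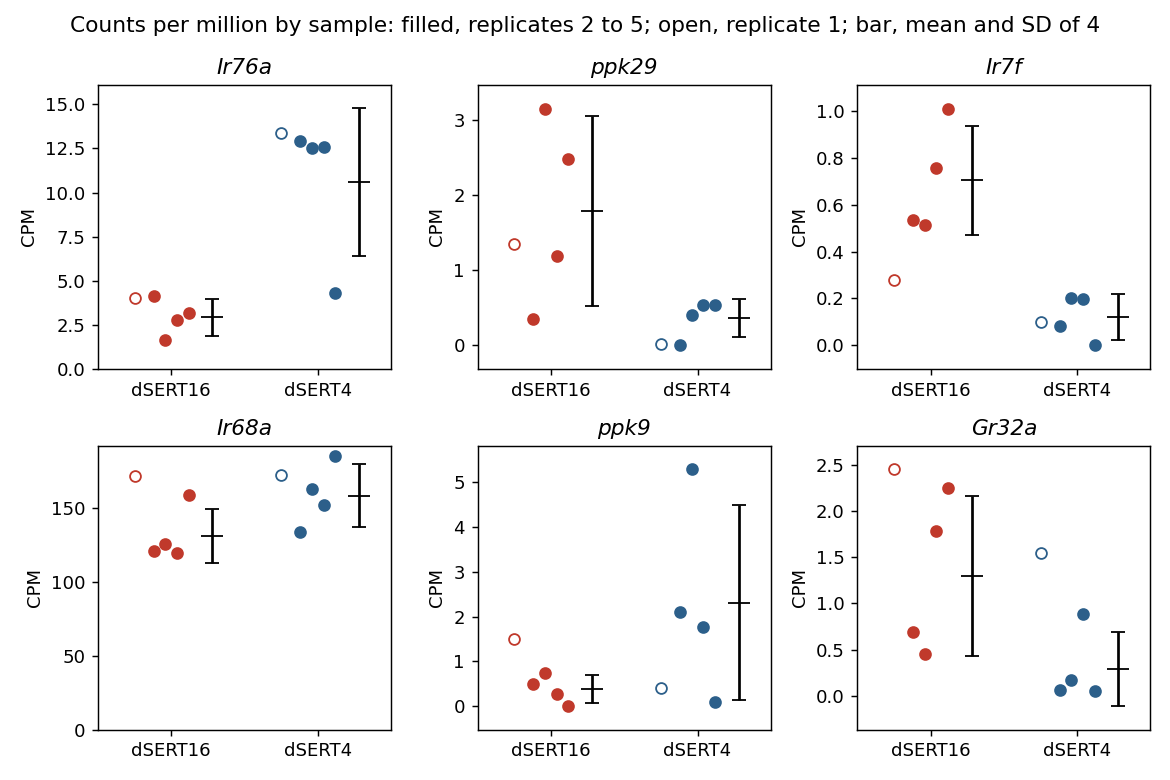
CPM by sample for 6 members, with dSERT16 at the left and dSERT4 at the right of each panel: filled points are replicates 2 to 5, open points are replicate 1 (scaled over all 10 samples), and bars are the mean and SD of the 4 filled points. Only Ir76a and Ir7f show no overlap of the filled points, and dSERT4 replicate 5 of Ir76a lies at 4.30 CPM against 12.5 to 12.9 CPM in the other 3 filled control points.

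By family, the members tested were balanced in direction. Of 10 Or genes 4 were higher and 6 lower in dSERT16, of 14 Gr genes 6 were higher and 8 lower, of 13 Ir genes 5 were higher and 8 lower, and of 10 ppk genes 5 were higher and 5 lower, with 0 called in each. The lowest adjusted p with edgeR was 0.0527 for Ir genes, 0.599 for ppk genes, 0.671 for Gr genes and 0.855 for Or genes. The next best-covered members differed by less than their errors. The log2 fold changes were -0.15 for Or43b (standard error 0.30), 0.39 for Or85f (0.40), 0.36 for Ir51a (0.61), -0.28 for Ir93a (0.45) and 0.23 for Ir41a (0.41).

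SerT lies on 2R, the arm that carries the deletions, and so do 15 members, 12 of them tested. The directions on 2R were 5 higher and 7 lower in dSERT16, with a median log2 fold change of -0.17 and 0 called. The study found its differing genes concentrated on this arm. It proposes that at least some may come from the disrupted DNA rather than from altered serotonin signals. Whether this holds for ppk29 was not tested. ppk29 is the member nearest to SerT, at 347.5 kb, followed by Gr59f, Gr59e and ppk3 at 860.7 to 863.8 kb. Of these members, ppk3 had a log2 fold change of 0.70 with a standard error of 0.97, and the Gr59 genes had too few reads to be tested. Ir76a lies on 3L, another chromosome. The members tested were higher and lower in dSERT16 in 4 and 9 cases on 2L, 1 and 6 on 3L, 4 and 4 on 3R and 6 and 1 on X, with median log2 fold changes of -0.13, -0.44, 0.04 and 0.27 on these arms. These differences between arms were not tested.

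The pair of replicate 1, set against the other collections in all 10 samples with genotype as a covariate, showed no member called by edgeR (0 of 73), beside 94 of 10387 features (0.905%). At an unadjusted p under 0.05 there were 5 members, beside 1436 features (13.8%). DESeq2 called 509 of 9875 features (5.15%) and 2 members, Ir93a and Or33a. Ir93a had 0.806 CPM in dSERT16 and 0.172 CPM in dSERT4 of replicate 1, below each of the other samples, where it had 1.89 to 3.29 CPM in dSERT16 and 1.91 to 4.73 CPM in dSERT4. Its log2 fold change for replicate 1 was -2.48 and its adjusted p 0.143 with edgeR. The summed glial markers of replicate 1 were also low, at 318.4 CPM in dSERT16 and 525.5 CPM in dSERT4, against 1109 to 1705 CPM in dSERT16 and 989.5 to 1686 CPM in dSERT4 of the other replicates. Their part in the level of Ir93a was not tested. Or33a, with at most 1 read in either sample of replicate 1, is too low for its fold to be read. Fewer cells of a type and less RNA per cell cannot be told apart in such bulk samples.

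Genes of related function gave no call either. Of 74 chemosensory accessory genes (Orco, odorant-binding proteins, CheA and CheB proteins and others), 19 had 0 reads, 10 were tested and 0 were called with edgeR, with 2 at an unadjusted p under 0.05 and a median log2 fold change of -0.03. Over all 8690 features, 0.495% were called and 7.01% had such an unadjusted p. A gene inside another could not be counted, so the 19 genes at 0 reads need not be silent. How many of them lie inside another gene was not checked. Obp44a led this list by far, at 185 ± 79.2 CPM in dSERT16 and 228 ± 60.2 CPM in dSERT4. In replicate 1 the list summed to 59.6 CPM in dSERT16 and 98.6 CPM in dSERT4. The other replicates had 148.3 to 330.8 CPM in dSERT16 and 199.9 to 340.0 CPM in dSERT4. The glial markers were low in replicate 1 too, and a link between them was not tested. Of 20 other sensory channels 19 were in the tables, 11 were tested and 0 were called, with 2 at an unadjusted p under 0.05, beside the same 0.495% and 7.01% of all features, and a median log2 fold change of -0.01. The lowest adjusted p was 0.233 for painless (pain), a TRP channel of nociception, which had 1.84 ± 0.880 CPM in dSERT16 and 5.91 ± 2.91 CPM in dSERT4. Trpm, a channel permeable to divalent cations, made up most of that list's reads, at 270.0 ± 22.7 CPM in dSERT16 and 316.9 ± 17.5 CPM in dSERT4, with an adjusted p of 0.554 (edgeR).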

How the data were processed

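Kenyon cells of 10 samples, 5 dSERT16 and 5 dSERT4, had been sequenced by SMART-seq. The authors aligned reads to BDGP6 (dm6) with STAR and kept unique reads; the STAR version and annotation release are not given in the sources used here. The deposited gene counts of each sample hold an unstranded column and 2 strand-specific columns, and the unstranded one was used. The deposited table of 9655 genes gives TPM for the 8 samples of the 4 pairs; how its rows were chosen is not stated. Its log2 fold changes and p-values, which the authors obtained with DESeq2, were not used. There were 0 sample columns without a sample. The summary lines for unmapped, multimapping (0.875% to 1.13% of reads), unassigned and ambiguous reads (8.84% to 9.85%) were left out of library sizes.

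Members were joined to the counts by FlyBase identifier. Genotypes were compared in replicates 2 to 5 with edgeR 4.0.16 in R 4.3.3 (quasi-likelihood test, TMM scaling, default low-count filter, which uses a count of 10 and a total of 15, robust fit, no block), with Benjamini-Hochberg adjustment over all features tested and a threshold of 0.05. CPM values are TMM-scaled. Log2 CPM used a prior count of 2. Standard errors were obtained as the size of the fitted change over the root of its F statistic. Further steps used Python 3.11.15, pandas 2.3.3 and matplotlib 3.10.9. The procedure was tested on simulated data.

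Collection dates in the labels give each replicate number 1 date for both genotypes, so the numbers pair the samples. Deviations from the genotype means correlated at 0.217, 0.104, 0.121, 0.0956 and 0.0546 across genes within replicates 1 to 5, against a mean of -0.0290 and a highest value of 0.0736 between dates. The brains of a sample were pooled, and nothing shows that the dates were separate crosses, so p-values measure the spread between these samples.

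Alternatives were DESeq2 1.42.0, its size factors in edgeR, no filter, a filter on 10 counts in every sample, the date as a block, all 5 pairs, reads summed over the strand-specific columns, a threshold of 0.01, each sample left out in turn and other detection limits. Levels per kilobase of exon and per countable base, and the permutation test within date pairs, were added after seeing the data. Countable bases are the span without bases shared with other annotated features, transposable elements included. Members named with values are Ir76a and ppk29, those called in any fit, tested members without overlap between genotypes, the 5 of highest mean TPM in each family and the ionotropic co-receptors. Any other gene was named for its known role or its place in an order, after its values were seen. The members and lists were chosen with earlier results of these data known.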

Additional observations from a re-analysis of the deposited data

Results flagged for a closer look

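In 42 groups of 4 samples (1 named member in 1 genotype each), 4 held a sample that stood apart from the other 3, by the ratio of its gap to the nearest sample over the group's whole range on the log2 CPM scale (Dixon's test at the 95% level). Chance gives about 1 in 20 such groups. The lowest dSERT4 sample of Ir76a was replicate 5, at 2.13, with the next at 3.66 and a gap of 0.971 of the range. The lowest dSERT4 sample of ppk29 was replicate 2, which had 0 reads and stands at -3.90, with the next at -1.09 and a gap of 0.882. The lowest dSERT4 sample of Or33a was replicate 5, also with 0 reads and at -3.90, with the next at -0.81 and a gap of 0.841. The highest dSERT16 sample of Ir68a was replicate 5, at 7.31, with the next at 6.97 and a gap of 0.836.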

How the results depend on the processing

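The count of all features called, 43, was 149 with DESeq2, 77 without the filter, 66 with all 5 pairs, 19 at an adjusted p under 0.01 and 18 to 40 with 1 sample left out. Members called, 0, became 1 (Ir76a) with DESeq2, without the filter, with at least 10 counts in every sample and with all 5 pairs, and 0 to 1 with 1 sample left out, the 1 being without dSERT4 replicate 5. With the collection date as a block, 58 features and 0 members were called in the 4 pairs, and 100 features and 1 member in all 5 pairs. The comparison of the first collection with the others called 2 members with DESeq2 in place of 0. Members detected, 52, fell to 9 when 10 reads were required in all 8 samples. Ir76a was called at log2 fold changes of -1.87 (DESeq2), -1.86 (no filter), -1.88 (10 counts in every sample), -1.83 (all 5 pairs), -1.80 (all 5 pairs with the date as a block) and -2.12 (without dSERT4 replicate 5). With 1 sample left out its log2 fold change ran from -2.12 to -1.66, and the other 7 of these 8 fits did not call it. Of 322 comparisons of a named member with an alternative, 270 kept direction and side of the threshold, 6 gained a call and 46 changed sign, in 13 of 21 members (lowest adjusted p among these 0.756). The cause was not tested.

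With all 5 pairs the sign changed for Gr22d (0.015), Gr66a (0.069), Gr8a (-0.37), Or42b (-0.30), Or43b (0.045) and ppk21 (-0.18). With the date as a block in 4 pairs it changed for Gr22d (0.45), Or2a (0.18), ppk17 (0.26) and ppk22 (0.087). With the block in all 5 pairs it changed for Gr22d (1.13), Gr8a (-0.63), Ir93a (0.21), Or2a (0.40), Or33a (0.16), Or42b (-0.27), Or43b (0.040) and ppk21 (-0.22), and with the strand-specific sum for Or43b (0.010). With 1 sample left out the log2 fold change ran from -0.51 to 1.45 for Gr22d, -0.69 to 0.17 for Gr43a, -0.74 to 0.012 for Gr66a, -1.01 to 0.94 for Gr8a, -0.14 to 0.71 for Ir51a, -0.47 to 0.058 for Ir93a, -0.38 to 0.61 for Or2a, -1.10 to 0.13 for Or33a, -0.33 to 0.44 for Or42b, -0.36 to 0.011 for Or43b, -0.77 to 0.46 for ppk17, -0.71 to 0.60 for ppk21 and -0.19 to 0.25 for ppk22. Per kilobase of exon, Ir41a ranked 6, Ir40a 39 and ppk29 17 among the 73 members, in place of 73, 72 and 38. Per countable base, Ir41a ranked 71, Ir40a 73, Ir76a 3 (in place of 4) and ppk29 16, and Ir68a was 3.92 times the next member in place of 6.77.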
